A study of Mus musculus with 32 samples.

Results

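The genes examined here encode the subunits of the mitochondrial respiratory chain that are made from the nuclear genome. They were taken by name from the deposited count table: protein-coding genes that do not lie on the mitochondrial chromosome, with a symbol that begins with Ndufa, Ndufb, Ndufc, Ndufs or Ndufv and a digit, with Uqcr, Atp5, Cox4i1, Cox5, Cox6, Cox7 or Cox8, or that is Sdha, Sdhb, Sdhc, Sdhd or Cyc1. This gives 84 of 35275 genes: 35 of complex I, 4 of complex II, 9 of complex III, 19 of complex IV and 17 of complex V. Ndufa4 and its relative Ndufa4l2 carry complex I names and are counted here with complex IV, where the Ndufa4 protein is now placed. The name rule also brings in Atp5s and Atp5sl, which are not structural subunits of the ATP synthase, and Cox7a2l, which helps complexes III and IV to join.

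The respiratory chain sits in the inner mitochondrial membrane. Complex I (NADH dehydrogenase) and complex II (succinate dehydrogenase) pass electrons to ubiquinone, complex III passes them on to cytochrome c, and complex IV (cytochrome c oxidase) passes them to oxygen. Complexes I, III and IV pump protons, and complex V, the ATP synthase, uses the returning protons to make ATP. Most of the subunits are encoded in the nucleus. Mitochondrial DNA supplies the catalytic center of complex IV and some of the membrane subunits of complexes I, III and V, so that subunits from 2 genomes have to be matched. Several complex IV subunits exist in a form found in most tissues and a form of heart and skeletal muscle.

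Poly(A) RNA of mouse lung was sequenced in 32 libraries from C57B/6 mice, which form 8 groups. A first experiment set cigarette smoke against room air over 5 months, with 3 air and 5 smoke libraries from males and as many from females, none of them operated. In a second experiment, all mice were females that breathed smoke, for 3 months after a sham operation (3 libraries) or removal of the ovaries (ovariectomy, 3 libraries), or for 5 months after a sham operation (5 libraries) or ovariectomy (5 libraries). The second experiment has no air group, so its comparisons are within smoke. The labels name no transgene. They leave unsaid whether each library is a different mouse, and the p-values below therefore measure only the spread between libraries, which may be technical.

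Library totals were 13790052 to 24497332 counts. Marker genes fit the labelled tissue: Sftpc, a surfactant gene of alveolar type 2 cells, was at 19788 to 33252 CPM in all 32 libraries. CPM, or counts per 1000000, are counts scaled to the size of the library. Some libraries stood apart. The liver transcript Alb (albumin) was over 100 CPM in 7 libraries: replicates 2 and 3 of ovariectomy at 3 months (499.7 and 1129 CPM), replicates 1 and 2 of sham at 5 months (573 and 502 CPM), replicate 5 of ovariectomy at 5 months (1107 CPM), replicate 1 of male air (262 CPM) and replicate 2 of female air (146 CPM). Replicate 2 of ovariectomy at 5 months had the highest summed level of the respiratory chain genes of any library. The part of these features in the results below was not tested beyond the values given.

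Many promoters of these genes are known to bind NRF1, GABP (a factor of the ETS family) and YY1, and the upstream sequences below show where letters of those kinds stand in 6 of the genes, picked as examples. RefSeq promoters (GRCm38.p6) were found for 66 of the 84 genes, in windows of 300 bases. The NRF1 letters, which are GCGC, any base and then TGCGC, read on both strands, were in 24.2% of these 66 windows and in 4.78% of 27025 windows of all genes. The ETS letters CCGGAAG were in 22.7% against 9.12%, and the YY1 letters AANATGGCG in 12.1% against 2.51%. The TATA letters TATAAA were in 10.6% against 14.2%. The median window held 19 CpG pairs against 7 in all windows. These are descriptions of letters in a window and not of binding. The 6 sequences that follow are the bases −150 to −1 before the start site, 5′ to 3′ on the strand of the gene. Capitals mark a match to the NRF1 or the ETS letters in either direction. Cox6a1 has the highest level of all 84 genes, Ndufa8 and Cox7a2 are among the genes that changed with smoke, Atp5g2 and Cox6b1 are abundant forms of their subunits, and Cox7a1 is the muscle form beside Cox7a2.
Cox6a1, chr5:115348959-115349108, minus strand: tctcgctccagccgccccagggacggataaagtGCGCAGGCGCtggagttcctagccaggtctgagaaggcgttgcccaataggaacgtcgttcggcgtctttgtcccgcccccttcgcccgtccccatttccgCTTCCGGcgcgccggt
Ndufa8, chr2:36049339-36049488, minus strand: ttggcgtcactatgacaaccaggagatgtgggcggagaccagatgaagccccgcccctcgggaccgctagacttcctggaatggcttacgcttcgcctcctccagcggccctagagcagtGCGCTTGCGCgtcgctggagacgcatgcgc
Atp5g2, chr15:102671048-102671197, minus strand: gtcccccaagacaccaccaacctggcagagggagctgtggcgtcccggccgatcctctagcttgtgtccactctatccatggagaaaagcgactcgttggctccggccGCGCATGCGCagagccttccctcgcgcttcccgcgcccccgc
Cox6b1, chr7:30626115-30626264, minus strand: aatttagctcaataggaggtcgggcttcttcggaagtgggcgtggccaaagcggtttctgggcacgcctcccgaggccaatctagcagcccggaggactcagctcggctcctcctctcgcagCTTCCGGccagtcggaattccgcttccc
Cox7a2, chr9:79759854-79760003, minus strand: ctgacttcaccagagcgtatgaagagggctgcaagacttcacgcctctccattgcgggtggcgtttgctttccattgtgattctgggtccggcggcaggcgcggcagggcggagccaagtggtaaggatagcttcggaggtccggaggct
Cox7a1, chr7:30184021-30184170, plus strand: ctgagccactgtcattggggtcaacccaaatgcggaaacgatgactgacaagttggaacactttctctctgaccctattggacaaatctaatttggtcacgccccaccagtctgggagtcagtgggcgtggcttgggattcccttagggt
The NRF1 match begins at base −117 in Cox6a1, −30 in Ndufa8 and −42 in Atp5g2, and the ETS match begins at −16 in Cox6a1 and −28 in Cox6b1. Neither set of letters is in the printed windows of Cox7a2 and Cox7a1. Atp5g1 and Ndufa10, which were called in comparisons below, are not printed and hold neither set in their 300 bases. The window of Cox7a2 holds 20 CpG pairs over its 300 bases and that of Cox7a1 holds 7. Cox8a and its muscle form Cox8b hold 19 and 2.

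The respiratory chain genes were among the abundant transcripts of the lung. Their levels were compared in TPM, transcripts per 1000000, which corrects for gene length. Together they made up 1.41% of all TPM. The median of the 82 genes at a mean of at least 1 TPM was 128 TPM, against 17.9 TPM over 13739 protein-coding genes at that level, which puts the median gene at percentile 92.5. A total of 55 genes were over 100 TPM and 2 were under 1 TPM. The genes are short: the median length in the deposited table was 961.5 bases, against 3056 bases for those protein-coding genes. In 12 genes the deposited length was over 2 times the median coding transcript of GENCODE M21. That median takes every transcript labelled protein-coding, with no filter for incomplete ones. The TPM of some of these 12 may be understated, but the ratio alone does not show it. In all, 28 genes share a stretch of at least 95% identity over 150 or more bases with another gene, 19 of them with a pseudogene. The counts of these 28 are less certain. Atp5l, a small membrane subunit of complex V, has 8 such pseudogenes.

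**Figure D1:**
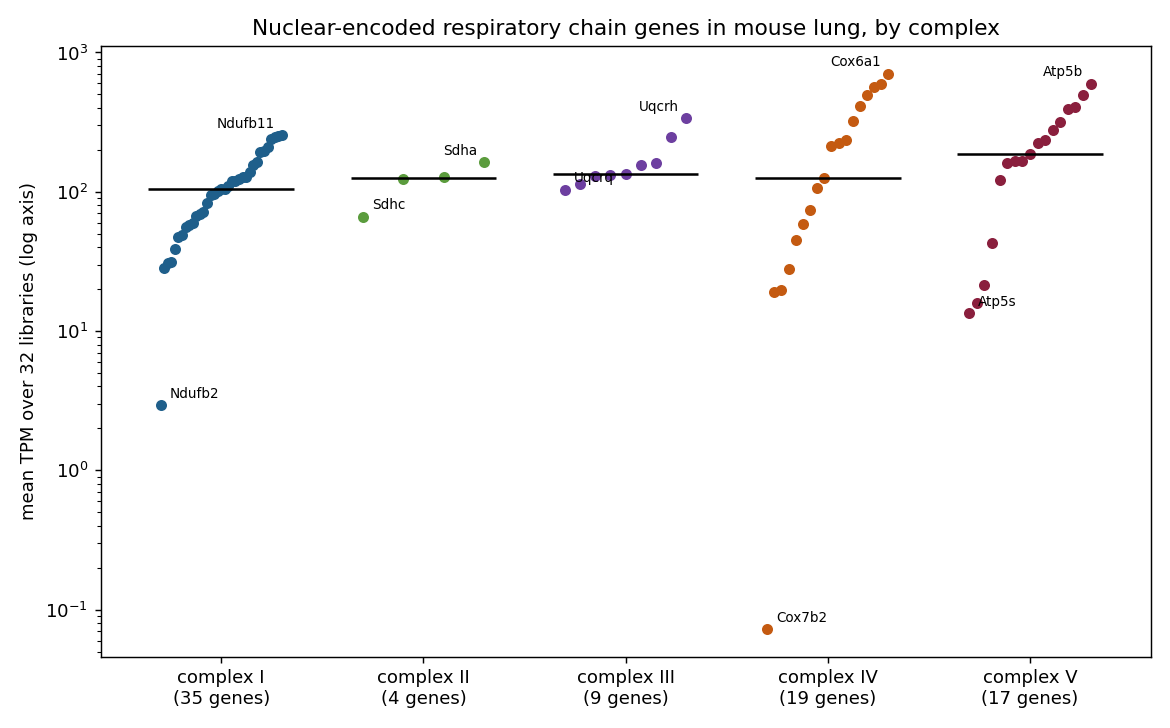
Mean TPM over 32 libraries (log axis) of each respiratory chain gene with counts, ordered within its complex; the line is the median of the complex, and the lowest and highest genes are named. Complex medians lie between 105 and 185 TPM, while complex IV spans the widest range, from Cox7b2 at 0.0728 TPM to Cox6a1 at 704 TPM; Cox8c, with 0 counts, is not drawn.

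In complex I, the 7 core genes, which carry the electron path, had a median of 119 TPM, and Ndufs1 was the lowest of them at 47.2 TPM. The 28 accessory genes had a median of 101 TPM. Ndufb11, an accessory gene on the X chromosome (20615326 to 20617619), was the highest at 256 TPM and Ndufb2 (chromosome 6, 39592574 to 39603382) the lowest at 2.94 TPM. The Ndufb2 value rests on a gene length of 4371 bases. In complex II, Sdha, the flavoprotein that oxidizes succinate (chromosome 13, 74322254 to 74350280), was the highest at 164 TPM, and Sdhc, a membrane anchor (chromosome 1, 171127165 to 171150603), the lowest at 66.3 TPM. The 9 genes of complex III lay between Uqcrq at 104 TPM and Uqcrh, the hinge protein (chromosome 4, 116066965 to 116075071), at 339 TPM.

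Complex IV held the abundant genes and also the scarce muscle and testis forms. Cox6a1 (chromosome 5, 115345642 to 115348981) was at 704 TPM, Ndufa4 at 594 TPM, Cox8a at 569 TPM, Cox4i1 at 492 TPM and Cox6b1 at 415 TPM. Their relatives were lower: Cox6a2, the heart and muscle form of subunit 6a, was at 59.1 TPM, Cox6b2, a testis form, at 45.3 TPM, Ndufa4l2 at 27.8 TPM, Cox7a1 at 19.8 TPM and Cox8b at 19.1 TPM. Cox7b, on the X chromosome, was at 125 TPM and its testis relative Cox7b2 at 0.0728 TPM. Cox8c, another testis form, had 0 counts in each of the 32 libraries, where 3 counts would have been 0.127 to 0.224 CPM depending on the library. As shares of the summed TPM of each pair, Cox6a2 made up 5.44 to 11.1% (median 7.38%), Cox7a1 2.76 to 18.8% (median 8.02%), Cox8b 1.38 to 7.80% (median 2.98%) and Cox6b2 5.47 to 13.4% (median 10.1%) over the 32 libraries. Cox7a2 (215 TPM) was the main form of subunit 7a in every library, and Cox7a2l was at 324 TPM.

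In complex V, the F1 head genes Atp5b (chromosome 10, 128083273 to 128090391) and Atp5a1, which form the catalytic hexamer, were at 597 and 390 TPM. The ring of c subunits that turns with the proton flow is encoded by Atp5g1, Atp5g2 and Atp5g3, which encode the same mature protein. Of their summed TPM, Atp5g3 made up 48.7 to 62.0% and Atp5g2 34.1 to 47.8%. Atp5g1 made up 2.99 to 4.41%, with a deposited length of 4715 bases, 1.76 times its median coding transcript. Atp5s, which is no structural subunit, was the lowest gene of this complex at 13.5 TPM.

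Over the 8 groups, the levels stayed close together. Of the 82 genes tested, 80 had a highest group mean less than 2 times the lowest, and the median ratio was 1.32. The exceptions were Ndufa4l2, at 28.5 ± 1.91 CPM in male air (SD, n = 3) and 4.67 ± 2.03 CPM in sham at 5 months (SD, n = 5), and Cox8b, at 5.26 ± 1.55 CPM in ovariectomy at 3 months and 1.90 ± 0.231 CPM in male air (SD, n = 3 each). Most of this order crosses experiments, so that group and experiment cannot be told apart in it, and no test was made between the experiments. The highest of the 8 means was in ovariectomy at 5 months for 29 genes, and the lowest was in sham at 3 months for 30 genes and in male air for 24.

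The summed level of all 84 genes was, in the first experiment, 5843 to 7392 CPM in male air, 6404 to 7268 CPM in male smoke, 6173 to 7464 CPM in female air and 6469 to 7110 CPM in female smoke. The smoke groups lay inside the range of the air groups in both sexes. In the second experiment it was 6357 to 6564 CPM in sham and 6969 to 7498 CPM in ovariectomized mice at 3 months, which did not overlap, and 6894 to 7444 CPM and 7110 to 8637 CPM at 5 months, which did. Of the complexes, only complex V did not overlap at 5 months, at 2422 to 2532 CPM in sham and 2576.5 to 2960 CPM after ovariectomy. On the TPM scale complex V overlapped, at 3988 to 4393.5 TPM in sham and 3955 to 4693 TPM after ovariectomy.

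**Figure D2:**
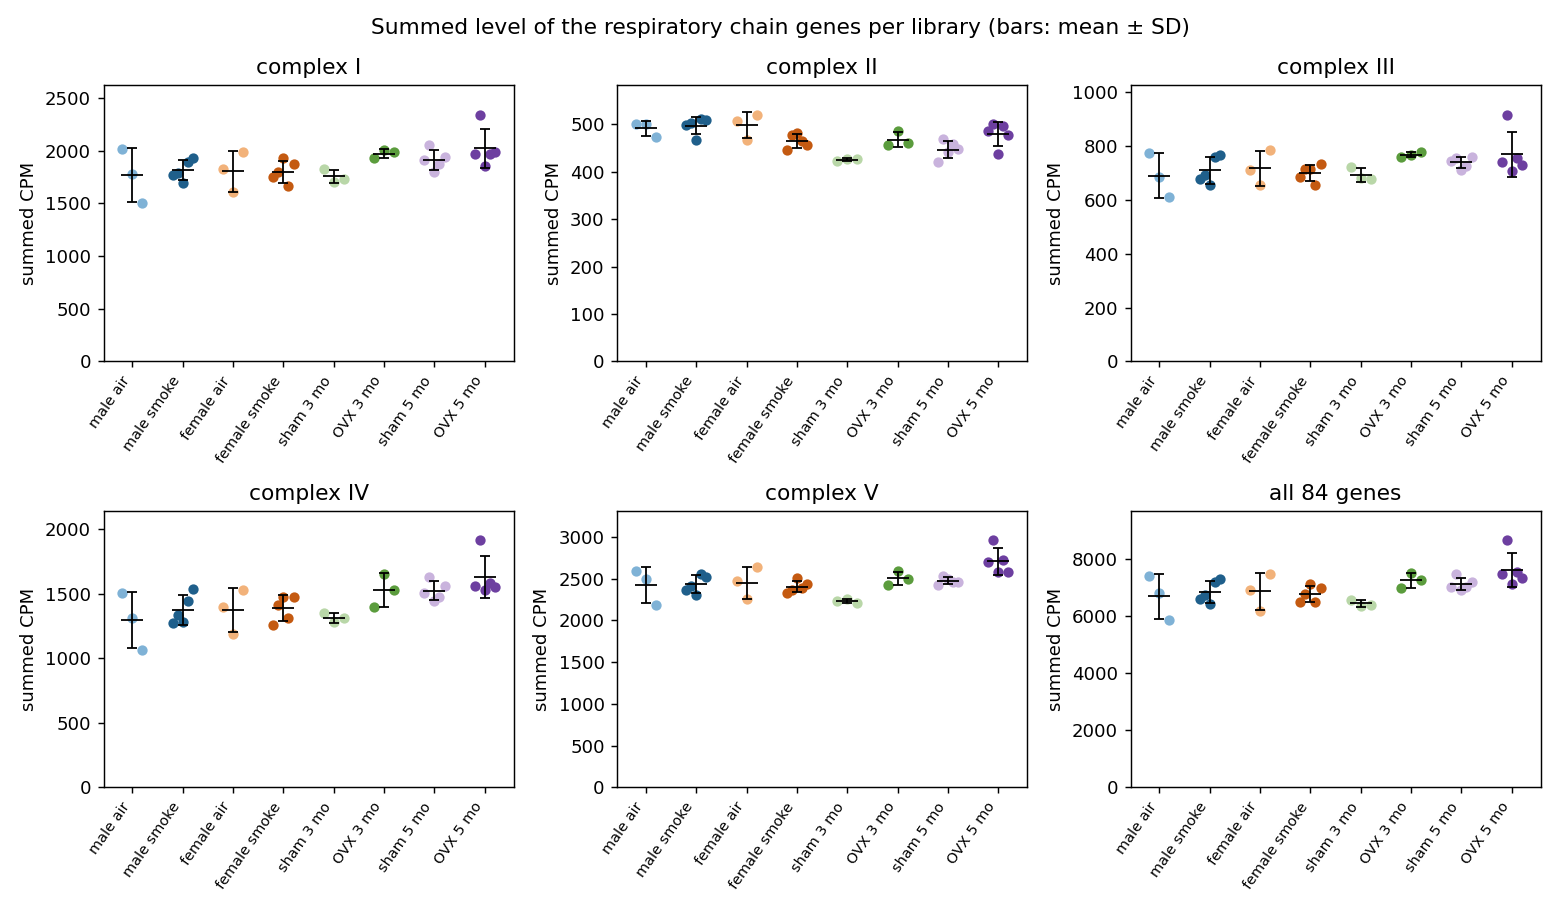
Summed CPM of the genes of each complex and of all 84 genes in each of the 32 libraries, by group (OVX is ovariectomy, mo is months); points are libraries and bars are mean ± SD. Sham and ovariectomy do not overlap in any of the 5 complexes at 3 months, and overlap in all but complex V at 5 months. The smoke and air groups overlap in every complex, and 1 library of ovariectomy at 5 months stands above its group at 8637 CPM over all genes.

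What smoke does to these genes in the female lung was asked with 5 smoke and 3 air libraries. Of 82 genes tested, 3 fell (3.66%) and 0 rose, at an adjusted p under 0.05 in edgeR's quasi-likelihood test with Benjamini-Hochberg adjustment over 16361 genes. Over all genes 7.7% were called, 3.18% lower and 4.52% higher. Without the threshold on adjusted p, 15 of the 82 (18.3%) had an unadjusted p under 0.05, against 21.3% of all genes. The air and smoke libraries did not overlap in 8 of the 82 (9.76%), against 14.5% of all genes. The median log2 fold change was −0.02, against −0.01 for all genes, and 35 of the 82 genes (42.7%) were above 0, against 47.9% of all genes. By complex the medians were −0.02 in complex I, −0.10 in complex II, −0.08 in complex III, 0.01 in complex IV and −0.04 in complex V. The direction of this small median was not stable: over the 82 genes it was 0.05 without replicate 3 of female air, −0.11 without replicate 2 and 0.03 on the scale of log2(TPM + 1).

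Ndufa4l2 (chromosome 10, 127514939 to 127517152), a relative of Ndufa4 and a known target of the hypoxia factor HIF-1, fell in females. It was at 20.5, 23.1 and 32.7 CPM in the air libraries and at 13.2, 13.96, 14.9, 15.5 and 17.3 CPM in the smoke libraries. All smoke libraries were below all air libraries. The log2 fold change was −0.76 (SE 0.14, adjusted p = 0.00166, edgeR), a fall of 1.69-fold.

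Ndufa8 (chromosome 2, 36036326 to 36049406), an accessory subunit of complex I, was at 48.8, 49.2 and 58.7 CPM in female air and at 33.1 to 47.2 CPM (median 41.1 CPM) in female smoke. The groups did not overlap, and the log2 fold change was −0.36 (SE 0.10, adjusted p = 0.0335, edgeR). Atp5g1 (chromosome 11, 96068852 to 96075670), the least abundant of the c ring genes, was at 52.6, 56.7 and 62.1 CPM in female air and at 41.0 to 50.03 CPM (median 42.1 CPM) in female smoke. Its groups did not overlap either, and the log2 fold change was −0.36 (SE 0.10, adjusted p = 0.0388, edgeR). The calls of Ndufa8 and Atp5g1 depended on single libraries: Ndufa8 had an adjusted p of 0.225 without replicate 3 of female air and 0.0630, 0.0520 and 0.0796 without replicates 1, 3 and 4 of female smoke. Atp5g1 had 0.212 and 0.0824 without replicates 3 and 1 of female air, and 0.0736, 0.0824 and 0.0851 without the same replicates 1, 3 and 4 of female smoke. Atp5g2 and Atp5g3 were not called, and Atp5g3 had a log2 fold change of −0.22 (adjusted p = 0.167, edgeR). Neither Ndufa8 nor Atp5g1 was called by edgeR in males. On the TPM scale, which is not that of the test, Ndufa8 was at 124 to 136 TPM in male air and 95.9 to 107 TPM in male smoke. These ranges did not overlap. On the CPM scale 16.8% of all genes did not overlap between air and smoke in males. Atp5g1 was at 47.3 to 58.8 CPM in male air and 38.2 to 53.7 CPM in male smoke, which overlapped. The difference between the sexes was called for neither gene.

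In males, 1 of 82 genes rose and 1 fell with smoke (2.44%), against 10.3% of all genes called, 4.93% higher and 5.33% lower. An unadjusted p under 0.05 was found for 12 of the 82 (14.6%), against 23.2% of all genes, and the groups did not overlap in 8 (9.76%), against 16.8%. The median log2 fold change was 0.05, against 0.01 for all genes, and 48 of 82 genes (58.5%) were above 0, against 51.3%. Medians by complex ran from −0.02 in complex III to 0.12 in complex IV. The median was −0.06 without replicate 3 of male air and 0.14 without replicate 1 of male air.

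Ndufa4l2 fell in males as well. It was at 26.8, 28.2 and 30.6 CPM in air and at 14.6, 15.3, 15.6, 16.1 and 19.8 CPM in smoke. The groups did not overlap, and the log2 fold change was −0.80 (SE 0.14, adjusted p = 0.000667, edgeR), a fall of 1.75-fold. Under all 15 other fits in each sex, which leave out single libraries or change the scaling, filter or test, Ndufa4l2 stayed called, with an adjusted p of at most 0.0282 in females and 0.00593 in males. The difference between the sexes in this change was −0.05 (adjusted p = 0.993, edgeR). Ndufa4, the abundant relative, was not called, with a log2 fold change of 0.12 in females (adjusted p = 0.622, edgeR) and 0.14 in males (adjusted p = 0.548, edgeR). Ndufa4l2 made up 7.79 to 14.4% of the summed TPM of the pair in the air libraries and 4.72 to 7.85% in the smoke libraries of this experiment.

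Markers of pericytes, the contractile cells around small vessels, had lower summed levels in smoke. Of 5 markers tested, 3 fell in females and 3 in males, in both cases Cox4i2, which encodes the lung form of complex IV subunit 4 and lies outside the name rule, Pdgfrb, a growth factor receptor, and Gucy1b3, part of the soluble guanylate cyclase that senses nitric oxide. The markers Higd1b and Cspg4 were called in neither sex. Over all genes, 3.18% were called lower and 4.52% higher in females, and 5.33% lower and 4.93% higher in males. Over both sexes, Higd1b was at 12.2 to 19.4 CPM in air and 11.9 to 16.8 CPM in smoke. Cspg4 was at 9.88 to 18.7 CPM in air and 8.12 to 13.8 CPM in smoke. Pdgfrb had log2 fold changes of −0.66 in females (adjusted p = 0.0398, edgeR) and −0.90 in males (adjusted p = 0.00525, edgeR). Cox4i2 had log2 fold changes of −0.62 in females (adjusted p = 0.00329, edgeR) and −0.50 in males (adjusted p = 0.0115, edgeR). The summed level of the 5 markers was 277 to 375 CPM in male air and 189 to 219 CPM in male smoke, and 232 to 324 CPM in female air and 162 to 219 CPM in female smoke. None of the 5 was at 0 in any library. Endothelial markers were lower as well, with 3 of 3 called in each sex: they summed to 1720 to 2346 CPM in male air and 1031 to 1300 CPM in male smoke, and to 1478 to 1909 CPM in female air and 993 to 1401 CPM in female smoke. Markers of alveolar type 1 cells were higher, with 4 of 4 called in males and 2 of 4 in females: they summed to 3771 to 4684 CPM in male air and 5008 to 6161 CPM in male smoke, and to 3480 to 4458 CPM in female air and 4220 to 5773 CPM in female smoke. Other lists differed too. Markers of red blood cells summed to 2172 to 3078 CPM in female air and 5976 to 13921 CPM in female smoke. In males they summed to 3685 to 11138 and 8679 to 11307 CPM. Markers of club cells of the airway summed to 28081 to 39670 and 8648 to 28250 CPM in females, and to 11658 to 32714 and 5725 to 34956 CPM in males. The part of these cell types in the fall of Ndufa4l2 was not tested, and in whole lung fewer cells of a type and less RNA per cell cannot be told apart. In the second experiment, where all mice breathed smoke, Ndufa4l2 was at 2.27 to 9.99 CPM. The pericyte markers summed to 80.6 to 158 CPM there and the endothelial markers to 288 to 671 CPM. Higd1b was at 10.1 to 17.1 CPM there and Cspg4 at 2.24 to 7.73 CPM. After 5 months of smoke, Ndufa4l2 was at 13.2 to 17.3 CPM in females of the first experiment. It was at 2.27 to 7.87 CPM in sham females of the second. Group and experiment cannot be told apart in these values, and the difference was not tested.

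Cox7a2 (chromosome 9, 79755241 to 79759853), the form of subunit 7a found in most tissues, rose in males. It was at 43.3, 48.7 and 52.5 CPM in male air and at 61.9, 64.5, 65.8, 73.2 and 82.6 CPM in male smoke, so that all smoke libraries were above all air libraries. The log2 fold change was 0.53 (SE 0.12, adjusted p = 0.00665, edgeR), and without replicate 3 of male air it was 0.46 (adjusted p = 0.0543). In females Cox7a2 was at 58.5 to 74.0 CPM in air and 52.2 to 74.5 CPM in smoke, with a log2 fold change of −0.06 (adjusted p = 0.843, edgeR). The difference between the sexes was 0.59 (SE 0.17, adjusted p = 0.686, edgeR; unadjusted p = 0.00209) and was not called. The muscle form Cox7a1 was not called in either sex.

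**Figure D3:**
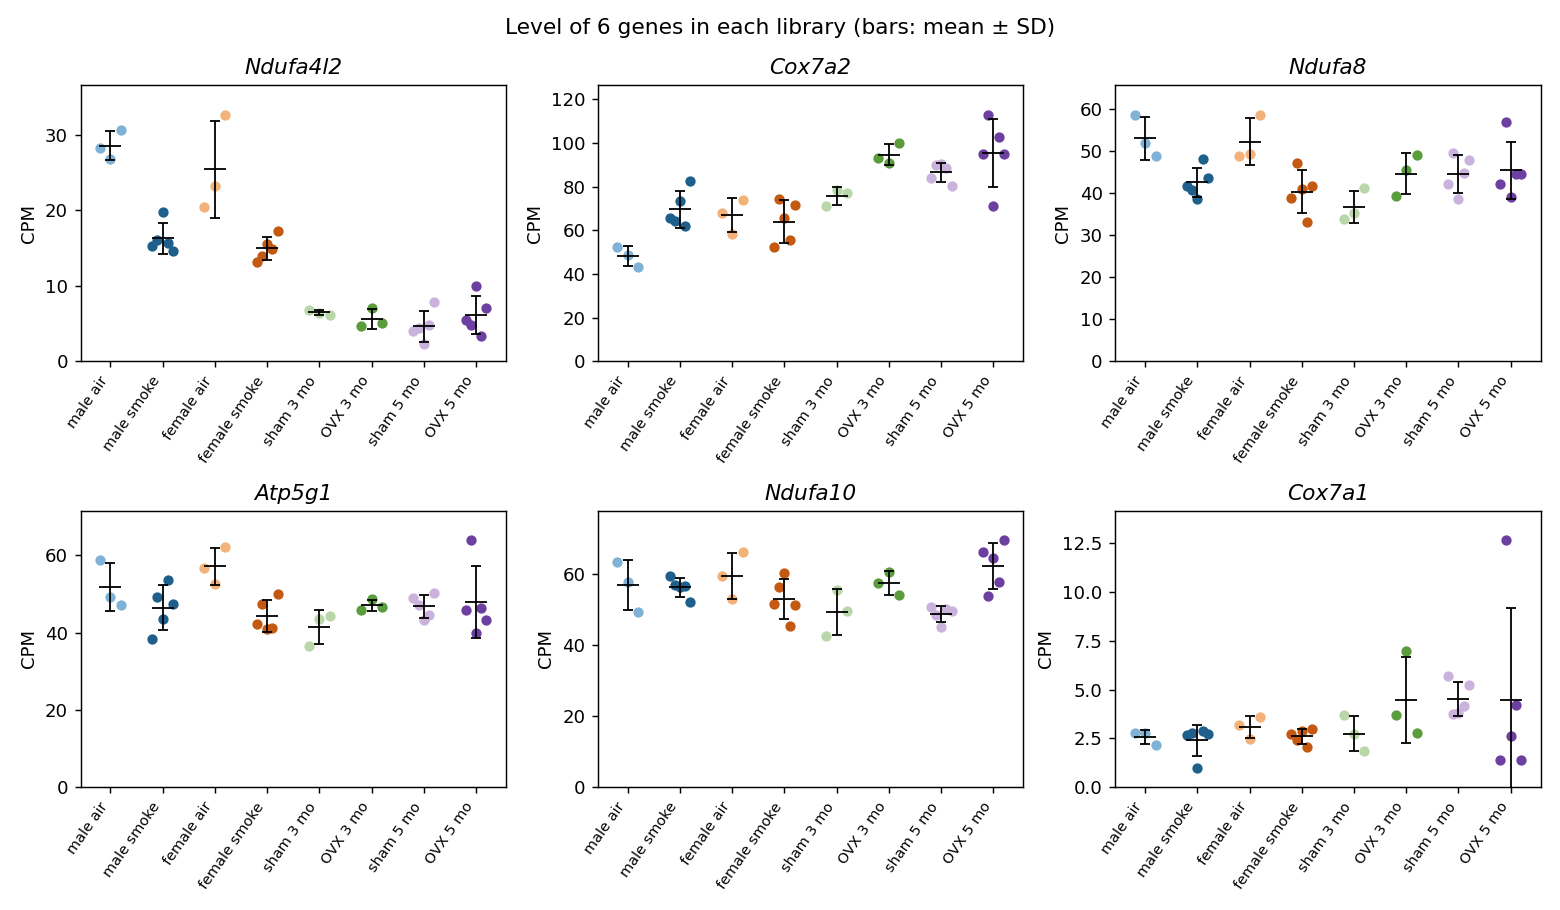
CPM of 6 genes in each of the 32 libraries, by group (OVX is ovariectomy, mo is months); points are libraries and bars are mean ± SD. Ndufa4l2 lies at 20.5 to 32.7 CPM in the air libraries, 13.2 to 19.8 CPM in the smoke libraries of the first experiment and 2.27 to 9.99 CPM in the second; Cox7a1 reaches 12.7 CPM in 1 library of ovariectomy at 5 months.

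None of the 82 genes was called between the sexes. In air, 0 were called by edgeR, against 0.177% of all genes (0.0489% lower in males), and 2 had an unadjusted p under 0.05, against 9.27%. In smoke, 0 were called by edgeR, against 0.189% (0.055% lower in males), and 3 had an unadjusted p under 0.05, against 7.74%. The male and female groups did not overlap in 3 genes in air, against 16.7% of all genes, and in 0 in smoke, against 1.6%. In air 24 genes (29.3%) were above 0 in males against females, where 48.6% of all genes were, and in smoke 44 (53.7%), where 51.2% were. The median of the 82 genes in air was −0.04 and turned with single libraries: it was 0.04 without replicate 3 of male air, 0.04 without replicate 3 of female air and −0.15 without replicate 1 of male air. It was −0.22 without the libraries over 100 CPM of Alb and 0.00 on the scale of log2(TPM + 1). DESeq2 and limma also called 0 in both. Cox7a2 was the gene with the smallest p in air, at 43.3 to 52.5 CPM in males and 58.5 to 74.0 CPM in females (log2 fold change −0.47, adjusted p = 0.226, edgeR). The X-linked genes Ndufa1, Ndufb11 and Cox7b had log2 fold changes of male against female between −0.22 and 0.11 in air. The difference of the smoke effect between the sexes was called for 0 of the 82 genes by edgeR, limma and DESeq2. The background in edgeR was 0.00611%. Of these differences 5 (6.1%) had an unadjusted p under 0.05, against 5.75% of all genes, and 53 (64.6%) were above 0, against 51.5%. Their median of 0.06 turned as well, to −0.01 without replicate 3 of male air, −0.03 without replicate 3 of female air and −0.02 on the scale of log2(TPM + 1), and it was 0.19 without the libraries over 100 CPM of Alb. A p that misses the threshold does not show that the sexes are alike.

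Transcripts made from mitochondrial DNA, which encode the partner subunits, were tested as well. Of 12 tested, 4 rose in females (median log2 fold change 0.46) and 5 in males (median 0.41), and 0 fell. Of them mt-Co1, the catalytic subunit of complex IV, had log2 fold changes of 0.47 in females (adjusted p = 0.0192, edgeR) and 0.43 in males (adjusted p = 0.0258, edgeR). The difference between these genes and the nuclear ones was not tested. The counts in the next lists stand beside shares over all genes of 4.52% higher and 3.18% lower in females and 4.93% higher and 5.33% lower in males. Of 42 assembly factors tested, 1 rose in females and 2 in males, and 0 fell. Coa5, a complex IV assembly factor, rose in both sexes (log2 fold changes 0.35, adjusted p = 0.00857, and 0.30, adjusted p = 0.0185, edgeR), and Coa6, another one, rose in males (0.42, adjusted p = 0.0401, edgeR). Of 17 genes of the citric acid cycle, 1 fell in females, Idh2, a mitochondrial isocitrate dehydrogenase (−0.43, adjusted p = 0.0144, edgeR), and 0 were called in males. Of 14 electron carriers and supercomplex genes, Cox4i2 among them, 1 fell in females and 2 in males, the other being Etfb, a subunit of the electron transfer flavoprotein (−0.33, adjusted p = 0.0184, edgeR). Of 76 genes of the mitochondrial ribosome, 1 fell in females and 1 rose in males. Of 13 regulators of mitochondrial biogenesis, 0 were called in females and 1 fell in males, Pprc1, a coactivator related to PGC-1 (−0.45, adjusted p = 0.00970, edgeR).

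**Figure D4:**
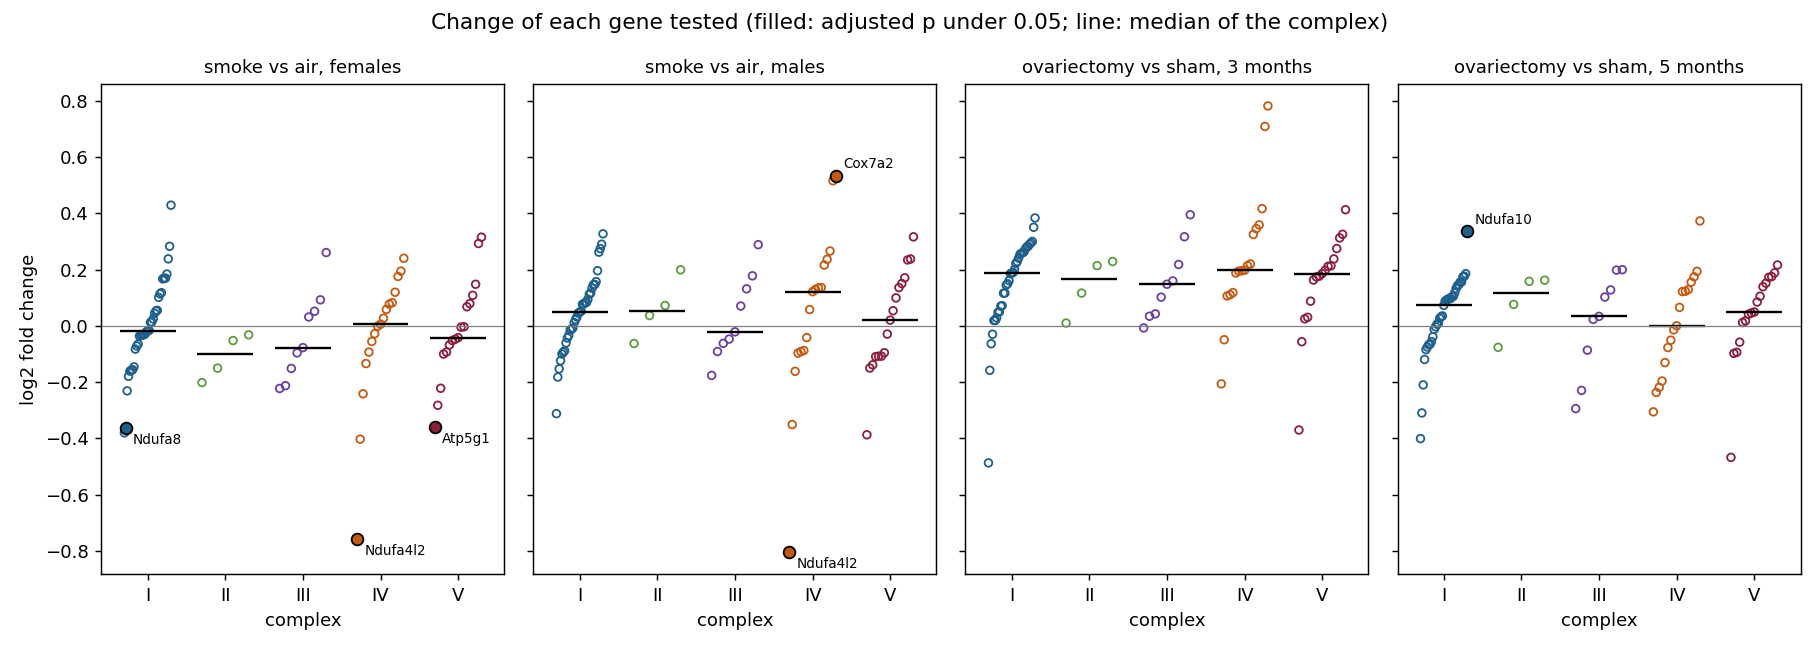
Log2 fold change of each tested gene by complex in 4 comparisons; filled points have an adjusted p under 0.05 and are named, and lines are medians of a complex. The smoke comparisons scatter around 0 with Ndufa4l2 lowest in both sexes, while 73 of 82 genes lie above 0 in ovariectomy against sham at 3 months.

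The effect of ovariectomy in smoke-exposed females was asked at 3 months with 3 libraries a side. Most of the respiratory chain genes had higher values after ovariectomy by a small amount, but the call was 0 of 82 genes by edgeR, 0 by limma and 1 by DESeq2, with 28 genes (34.1%) at an unadjusted p under 0.05, 27 of them higher. Over all 16874 genes, 0% were called by edgeR and 9.29% had an unadjusted p under 0.05. The share of all genes that DESeq2 called is not given here, so its 1 call has no background beside it. Of the 82 genes, 73 (89%) had a log2 fold change above 0, against 50.6% of all genes. The median was 0.19, against 0.00 for all genes, and the 5 complexes had medians of 0.15 to 0.20. In 37 genes (45.1%) the groups did not overlap, against 15.2% of all genes. The 82 genes were measured in the same 6 libraries, so that these counts are not separate pieces of evidence. The median stayed between 0.12 and 0.21 under the other fits and with single libraries left out.

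By complex, the summed levels were 1709 to 1828 CPM in sham and 1929 to 2003 CPM in ovariectomized mice in complex I, 422 to 428 and 457 to 485 CPM in complex II, 678 to 724 and 760.0 to 778 CPM in complex III, 1279 to 1355 and 1395 to 1656 CPM in complex IV, and 2213 to 2261 and 2429 to 2588 CPM in complex V. The ovariectomized libraries were above the sham libraries in each complex on this scale. On the TPM scale those of complex III overlapped, at 1508 to 1685 TPM in sham and 1614 to 1739 TPM after ovariectomy. The smallest p was that of Cox6a1, at 160.2, 164 and 168 CPM in sham and 186, 213 and 225 CPM in ovariectomized mice (log2 fold change 0.35, SE 0.09, adjusted p = 0.224, edgeR). It was followed by Cox4i1, at 137, 141 and 159 CPM against 158, 185 and 217 CPM, which overlap by 1 library (log2 fold change 0.36, SE 0.10, adjusted p = 0.265, edgeR).

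Levels of other transcripts differed beside these. Replicates 2 and 3 of ovariectomy carried the liver transcripts named above, against at most 1.93 CPM of Alb in sham. With all libraries over 100 CPM of Alb left out, which leaves only replicate 1 of ovariectomy, the median was 0.12. That library stood apart in another way: its 4 brown fat markers summed to 14.8 CPM, against 3.83 to 5.06 CPM in sham and 5.14 and 6.03 CPM in the other ovariectomized libraries, and Ucp1, the uncoupling protein of brown fat, was at 8.72 CPM, against 0 to 0.0617 CPM in sham. Without replicate 1 the median was 0.21. Genes of the cytosolic ribosome had a median of 0.20 with 0 of 74 called, and 952 other short genes (up to 1500 bases, mean log2 CPM 4 or more) had a median of 0.11. The 10 cardiac markers summed to 167 to 205 CPM in sham and to 202 to 398 CPM after ovariectomy, with 0 at an adjusted p under 0.05. The part of these in the higher values was not tested.

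At 5 months, with 5 libraries a side, 1 of 82 genes rose and 0 fell after ovariectomy (1.22%), against 1.36% of all genes called, 0.587% higher and 0.776% lower. An unadjusted p under 0.05 was found for 16 of the 82 (19.5%), against 15.5% of all genes, and the groups did not overlap in 6 (7.32%), against 3.85%. In all 54 genes (65.9%) were above 0, against 47.6%. The median was 0.06, against −0.01 for all genes, and it was −0.01 without replicate 2 of ovariectomy and −0.03 on the scale of log2(TPM + 1). Ndufa10 (chromosome 1, 92439010 to 92473860), an accessory subunit of complex I, was at 45.01, 48.5, 49.6, 50.03 and 50.5 CPM in sham and 53.6, 57.6, 64.3, 66.2 and 69.4 CPM in ovariectomized mice. The groups did not overlap. The log2 fold change was 0.34 (SE 0.08, adjusted p = 0.0374, edgeR), but the call ended when any of 8 libraries was left out (all except replicates 2 and 4 of ovariectomy), with an adjusted p of up to 0.106. At 3 months Ndufa10 had a log2 fold change of 0.22 (adjusted p = 0.526, edgeR). Of the 12 transcripts from mitochondrial DNA, 1 rose at 5 months, mt-Co1 (0.36, adjusted p = 0.0268, edgeR), and of the assembly factors, the citric acid cycle and the biogenesis regulators 0 were called at 3 or 5 months. The nuclear RNAs Malat1 and Neat1 summed to 4447 to 6731 CPM in sham and 2402 to 3736 CPM after ovariectomy, and the part of RNA quality was not tested.

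The difference between the 3 and 5 month effects of ovariectomy was called for 0 of 82 genes by edgeR, limma and DESeq2. The background in edgeR was 0%. In edgeR 4 of the 82 had an unadjusted p under 0.05, or 4.88%, against 5% of all genes. The median of this difference was −0.11. Between 5 and 3 months, with surgery in the fit, 0 of 82 genes were called by edgeR, against 0.13% of all genes (0.0237% higher). DESeq2 called 5 of the 82. The share of all genes that DESeq2 called is not given here, so the 5 have no background beside them. In this comparison 65 genes (79.3%) were above 0, against 49.2% of all genes, the median was 0.09, and 22 (26.8%) had an unadjusted p under 0.05, against 13.4%, all of them higher. Cox4i1 (log2 fold change 0.25, adjusted p = 0.0782, edgeR), Atp5b (0.18, adjusted p = 0.0783, edgeR) and Cox6a1 (0.22, adjusted p = 0.0820, edgeR) had the smallest p. The 3 month libraries serve in this comparison and in those of ovariectomy, so their values are set side by side and not as separate evidence.

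Within a group, 1 library was often the highest or the lowest for most of these genes. In male air, replicate 1 was the highest of 3 libraries for 66 of 82 genes and replicate 3 the lowest for 73. In female air, replicate 3 was the highest for 64 and replicate 2 the lowest for 72. In ovariectomy at 5 months, replicate 2 was the highest of 5 for 62. Equal shares would be 33.3% and 20% of the genes. In that last library the median deviation from the group mean was 0.35 (log2) for the 24 shortest and 0.07 for the 24 longest genes. Its cardiac markers summed to 558 CPM, against 164 to 286 CPM in the other 4 libraries, Cox7a1 was at 12.7 CPM against 1.38 to 4.22 CPM, and Cox8b at 8.10 CPM against 1.398 to 3.29 CPM. In TPM, its Cox7a1 was at 72.5 and its Cox8b at 46.6. In the first experiment, replicate 2 of male air had cardiac markers at 541 CPM with Cox7a1 at 15.9 and Cox8b at 12.2 TPM. Replicate 3 of female air had 485 CPM with 19.0 and 14.7 TPM. Single cardiac markers went both ways between replicate 2 of male air and replicate 2 of ovariectomy at 5 months. Myh6 was at 199 against 56.3 CPM and Actc1 at 108 against 55.2 CPM. Myl7 was at 40.8 against 108.5 CPM, Sln at 8.74 against 49.8 CPM and Tnnt2 at 47.4 against 58.4 CPM. The part of cardiac tissue in these levels was not tested.

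The SD of log2 CPM within groups was mostly smaller in longer genes (Spearman's rho −0.54 over 78 genes of at least 10 CPM, a description across genes that share libraries). The median SD was 0.201 for 22 genes of up to 700 bases and 0.120 for 19 genes of over 1500 and up to 3000 bases, and 0.146 for 4 longer genes. All other genes at that level had medians of 0.224, 0.152 and 0.143 in the same classes. Cox7a1 had the largest SD (0.649), with Cox8b (0.541), Atp5k (0.440), Ndufa4l2 (0.387) and Ndufa1 (0.386) next. Their mean levels, in that order, were 3.40, 3.24, 11.3, 12.8 and 27.3 CPM. Atp5b (0.0589), Sdha (0.0679) and Atp5a1 (0.0717) had the smallest SD, at mean levels of 540, 224 and 491 CPM. The parts of level and length in the spread were not told apart.

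**Figure D5:**
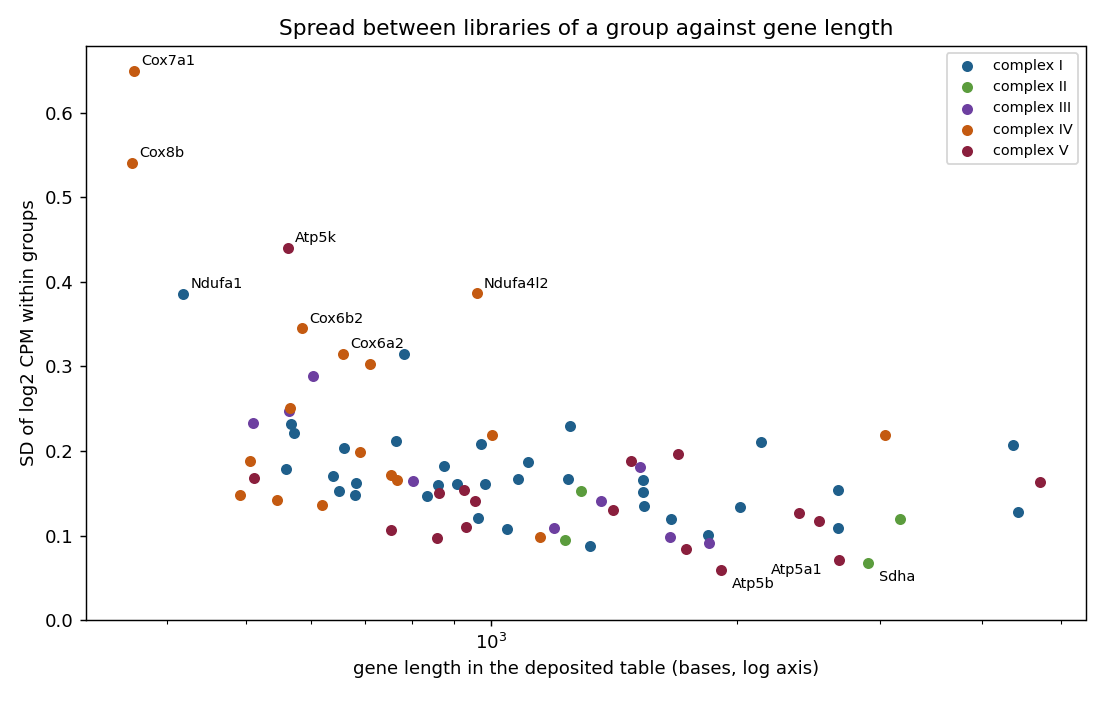
SD of log2 CPM between libraries of the same group against the gene length in the deposited table (log axis), for the 82 tested genes, by complex. The muscle forms Cox7a1 (0.649) and Cox8b (0.541) are the highest and Atp5b (0.0589), Sdha and Atp5a1 the lowest; among genes of at least 10 CPM, Spearman's rho with length is −0.54.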

How the data were processed

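The authors deposited whole-number counts per Ensembl gene, and the values of their normalized table equal TPM recomputed from those counts and the table's gene lengths (100% of values, tolerance 1e-06). RNA was isolated with Trizol and libraries made with a NEBNext kit, per the labels' protocols. FastQC and the builds GRCm38 and mm10 are named, per the submitters' processing notes; aligner and counter: not given in the sources used here, so strand and shared reads could not be checked.

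All genes of each experiment were fitted together with edgeR 4.0.16 in R 4.3.3 (filterByExpr, TMM scaling, 4 group means, robust quasi-likelihood F test). P-values were adjusted over all genes by Benjamini and Hochberg, and 0.05 was the limit for a call. CPM in the text uses TMM scaling over all 32 libraries. Alternatives used limma 3.58.1 and DESeq2 1.42.0. Shared sequence was searched with BLAST+ 2.17.0. The edgeR fits were also run on simulated counts with known changes. Those counts had the same set dispersion for all genes and no shift shared by most genes of a library. The run therefore cannot show how the fits handle such shifts. Plots used matplotlib 3.10.9.

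The genes and lists were chosen with earlier results of these data known. Named genes are those called when 10 or fewer are, the paralogs of complex IV and the c ring, and the highest and lowest of each complex; others were named after their values were seen. Coordinates are those of the deposited table. Depth was 13790052 to 24497332 counts per library, and floors cover counting error only. The values of 1 gene of the set are not reported here.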

Additional observations from a re-analysis of the deposited data

Results flagged for a closer look

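Over 60 sets of 5 libraries (15 values in 4 groups), 8 had a library that stood further from the others than Dixon's test allows at 95%; chance gives about 1 in 20, and the 15 values are not independent. Of the 8, 7 were replicate 2 of ovariectomy at 5 months: Atp5g1 at 63.9 CPM (next 46.4), Cox7a1 at 12.7 CPM (next 4.22), Cox8b at 8.10 CPM (next 3.29), the sum of complex I at 2344 CPM (next 1986), that of complex III at 917 CPM (next 756), that of complex IV at 1916 CPM (next 1585) and that of all genes at 8637 CPM (next 7527). The other was Cox7a1 at 1.00 CPM in replicate 3 of male smoke (next 2.68).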

How the results depend on the processing

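The number of genes called over all genes also moved with the fit. Smoke in females gave 1259, with 490 to 1151 when single libraries were left out and 789 to 1679 under 7 other fits. Smoke in males gave 1678, 962 to 1694 and 992 to 2043 in the same order. Ovariectomy at 5 months gave 230, 39 to 259 and 111 to 605. Leaving out single libraries gave 0 to 6 for ovariectomy at 3 months and 2 to 125 for months 5 against 3. The counts that follow are of genes called among the 82. Smoke in females gave 3: DESeq2 gave 5 (2 higher), and leaving out single libraries gave 1 to 4, with 1 without replicate 3 of female air or replicate 1, 3 or 4 of female smoke. Smoke in males gave 2: limma on log2(TPM + 1) and DESeq2 gave 4 each, and leaving out single libraries 2 to 4, with 4 without replicate 4 of male smoke. Ovariectomy at 3 months gave 0 and DESeq2 1. Ovariectomy at 5 months gave 1: library totals alone, limma and leaving out the libraries over 100 CPM of Alb gave 0, DESeq2 6 (all higher), and leaving out single libraries 0 to 3. The 3 came without replicate 2 of ovariectomy (1 higher, 2 lower). Months 5 against 3 gave 0, DESeq2 5, the Alb libraries left out 2, and single libraries left out 0 to 1 (1 without replicate 2 of ovariectomy at 3 months or replicate 1 of sham at 5 months). The replicate block gave 0 for ovariectomy at 5 months and 1 for months, and ended the call of Ndufa8 in females (adjusted p = 0.0745). Same-numbered libraries of different groups correlated at a mean r of 0.02 in the first and −0.03 in the second experiment. Libraries with different numbers correlated at a mean r of −0.005 and 0.008. The labels do not say what the numbers mean, and mean values near 0 cannot exclude a pairing or a shared batch. Atp5g1 in females missed under limma (adjusted p = 0.0762), and Ndufa10 under library totals (0.0611), the block (0.0562), limma (0.102) and without the Alb libraries (0.154). The alternatives on the Alb libraries and the medians were chosen after the data were seen. No sex comparison or interaction called any of the 82 genes under any alternative. The cause of these differences was not tested.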
